A study of Mus musculus with 64 samples.

Results

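Translation initiation and elongation factors are the proteins that bring messenger RNA, the initiator tRNA and the ribosomal subunits together and then move the ribosome along the message. The members described here are the genes of the deposited table whose symbols begin with Eif or Eef followed by a digit, and Eif2s3x and Eif2s3y, the X- and Y-linked genes of the gamma subunit of eIF2, were left out by the rule. This gave 55 of 5647 genes. The rule picks genes by name, not by a measured value, although results of these data were known when it was set.

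The libraries came from microglia, the resident macrophages of the brain, of single C57BL/6J mice, an inbred strain. Live CD11b+ cells with low CD45 were sorted from brains without the cerebellum, and each mouse gave 1 of 64 libraries. Female mice labelled PBS, the vehicle, were 3, 6, 9, 12, 14, 16 or 24 months old, with 4, 2, 3, 4, 5, 5 and 3 mice. Male mice labelled PBS were 3, 6, 9, 12, 16, 19 or 24 months old, with 4, 4, 4, 2, 4, 5 and 4 mice. Female mice of 3, 14 and 24 months, with 3, 5 and 3 mice, received lipopolysaccharide (LPS), a bacterial cell wall component that provokes inflammation, at 0.5 mg/kg into the peritoneum and were killed 2 h later. The PBS females of these 3 ages were both the LPS controls and part of the age series, so that comparisons with the 3-month females share those 4 libraries. LPS was given to females only.

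In eukaryotes eIF4E binds the cap of the message, eIF4G acts as the scaffold and eIF4A, an RNA helicase, opens the leader. eIF2 carries the initiator tRNA to the small ribosomal subunit, where eIF1, eIF1A and eIF3 take part in scanning for the start codon, and eIF5 and eIF5B complete the step. During elongation eEF1A delivers aminoacyl-tRNA and eEF2 moves the ribosome by a codon. Cells lower the output mainly through kinases that phosphorylate eIF2 alpha and through eIF4E-binding proteins that mTOR signalling keeps inactive.

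The values are FPKM that the authors adjusted for batches and rounded, so that they are per transcript length and can be set side by side between genes, but the number of reads behind them is unknown. They summed to between 408457 and 554459 per library. All 10 markers of microglia fixed for the check were in the table and none was at 0, with summed values of 14584 to 26494 per library. All 12 neutrophil markers were also present, with summed values of 344 to 32028, and they were highest in the 16-month males and lowest in 1 of the 9-month females. In the bulk libraries a change in the share of a cell type and a change in RNA per cell cannot be told apart. In 21 libraries no value lay between 0 and 1, among them all 5 of the 16-month females and no other female PBS library, so that whatever sets these libraries apart and the age of 16 months cannot be told apart in females.

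Levels of the 55 factors ranged widely. The median of their means over all libraries was 36.4 FPKM, against 26.3 over all 5647 genes. Eef1a1, which delivers aminoacyl-tRNA, had the highest mean at 974 FPKM and ranged from 487 to 1913 over the 64 libraries. Eif5a, which relieves stalled ribosomes, followed at 329 FPKM, Eif1, which guards start codon choice, at 322 FPKM, the helicase gene Eif4a1 at 198 FPKM and Eef2 at 145 FPKM. At the low end Eif4enif1, which encodes an eIF4E-binding protein of P-bodies, had a mean of 11.4 FPKM and Eif2a 11.5 FPKM. Eif2d was the only member with a value of 0, in 1 library. The median spread within groups was 0.26 on the log2 scale in females and 0.28 in males for the members, against 0.32 and 0.30 for all genes.

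A gene passed the test at an adjusted p under 0.05 in limma over all genes with a fold above 1.5, on the scale log2(value + 1), which understates the change of low genes. Over the 7 female ages 5 of the 55 members passed, 3 with a rise and 2 with a fall as their largest change from 3 months, and 14.8% of all genes did (5.21% with a rise and 9.60% with a fall). The rises were those of Eif1a, Eif4a1 and Eef1a1 and the falls those of Eif4a2 and Eif4e3. Over the 7 male ages only Eif4ebp1 passed, against 8.36% of all genes. At 12 against 3 months in females 1 member rose and 2 fell, against 1.31% and 7.76% of all genes (9.07% in all). At 16 against 3 months 3 members rose and 1 fell, against 3.01% and 6.00% (9.01% in all). Eif4a1 alone passed at 9 months (2.66% of all genes), and none did at 6 or 14 months (0.301% and 3.31%), where 3 and 7 members had an unadjusted p under 0.05, as did 11.4% and 24.2% of all genes. After LPS at 3 months 3 members rose and 1 fell, against 6.16% and 5.08% of all genes (11.2% in all). In the other LPS comparisons 1 member passed at 14 months (1.81% of all genes) and 2 at 24 months (9.70%). On the deposited scale the share of members called over both directions was near or below the share of all genes called in each of these comparisons.

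No member passed in limma at 24 against 3 months in females, where 2.09% of all genes did and 8 members had an unadjusted p under 0.05 (18.9% of all genes), 6 of them higher at 24 months (9.92% of all genes). In males none passed at 16 or 24 against 3 months, where 6.29% and 2.85% of all genes did. The unadjusted counts there were 9 and 10 members (18.9% and 13.2% of all genes), all of them higher at the older age, as were 10.7% and 11.3% of all genes. At 6, 9, 12 and 19 months against 3 months in males none passed either (0%, 0.0354%, 0.903% and 3.05% of all genes), with 6, 5, 2 and 4 members at an unadjusted p under 0.05 (8.15%, 11.8%, 11.5% and 12.7% of all genes).

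**Figure D1:**
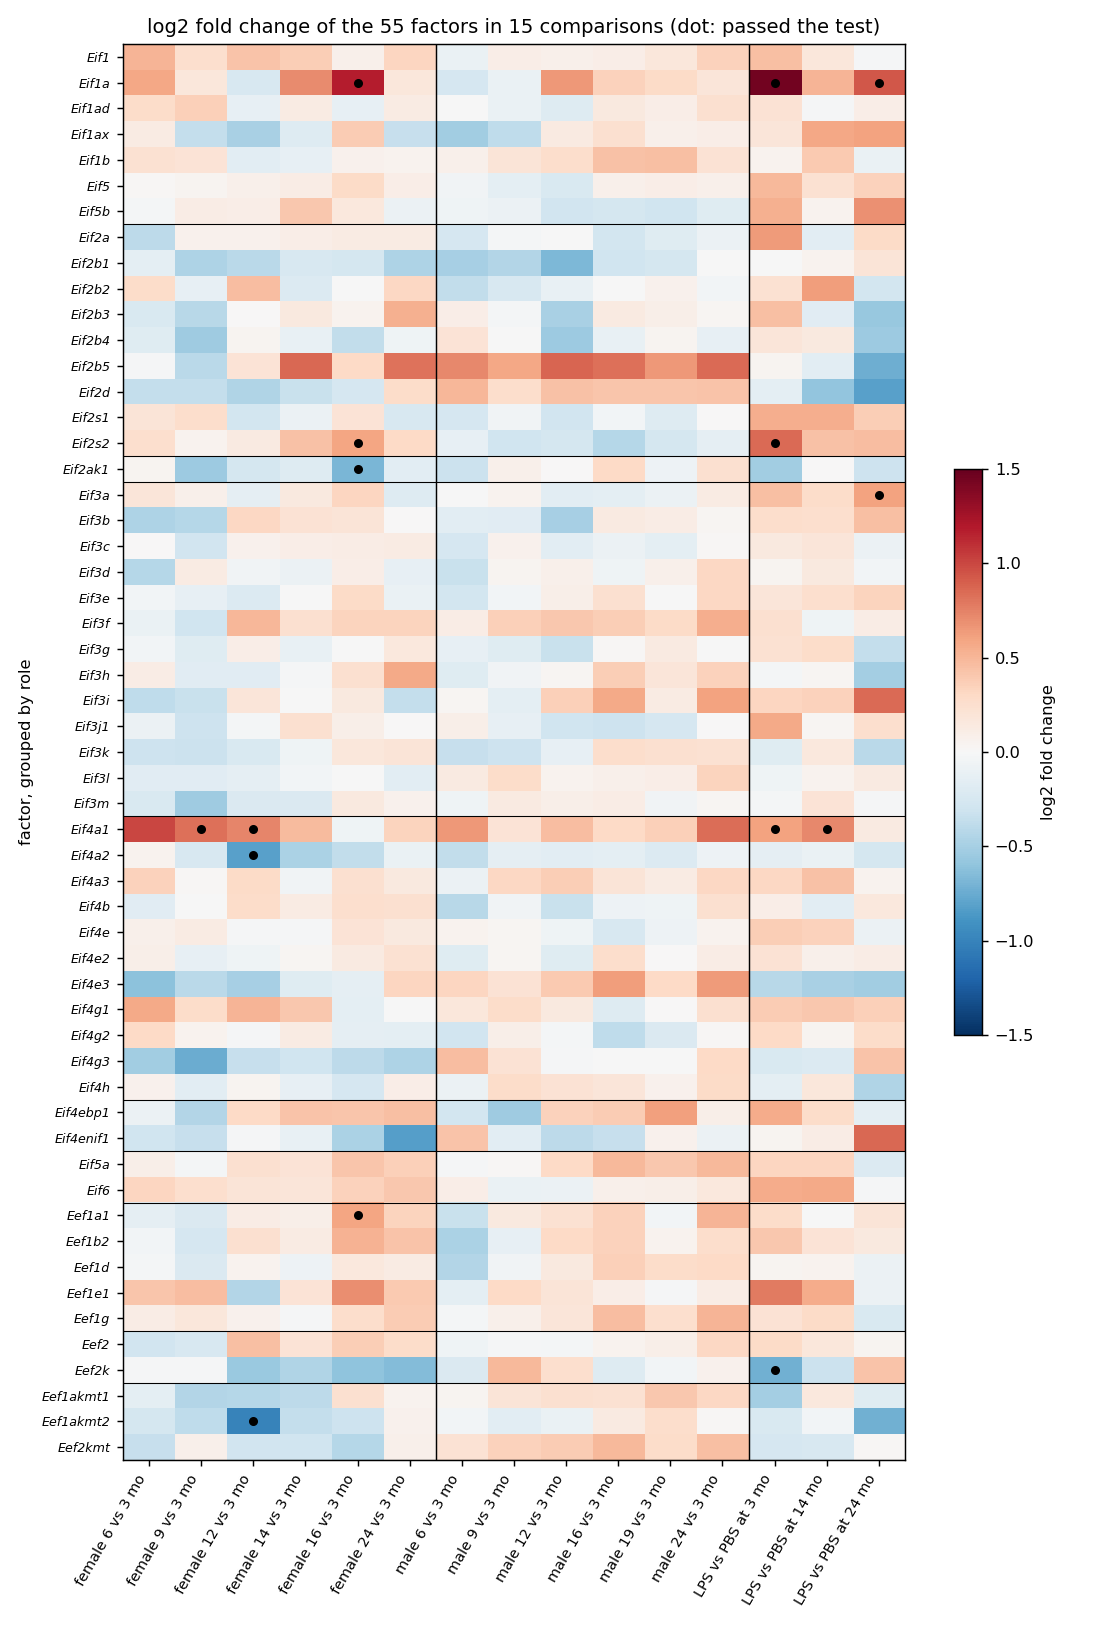
Heat map of log2 fold changes of the 55 factors (rows, grouped by role and separated by lines) in 15 comparisons (columns: female ages against 3 months, male ages against 3 months, LPS against PBS). Red is higher and blue is lower than the control group, and a black dot marks a member that passed the test; dots are found for Eif4a1 in 4 columns and for Eif1a in 3.

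As a set the factors sat above the middle of the table in most comparisons. The median log2 fold change of all genes was itself below 0 in females of 6 to 16 months against 3 months, between -0.16 and -0.19, and it was -0.14 and -0.15 for LPS at 3 and 24 months. The members' medians were -0.03, -0.17, -0.01, -0.00 and 0.14 in females of 6, 9, 12, 14 and 16 months. At 16 months 44 of the 55 members (80.0%) lay above the median of all genes, and at 24 months, where the members' median was 0.12 and that of all genes -0.02, 39 members (70.9%) did. In males the members' medians were 0.14 at 16 months and 0.21 at 24 months, against 0.00 and 0.10 for all genes. After LPS the members' medians were 0.22, 0.16 and 0.04 at 3, 14 and 24 months, against -0.14, 0.02 and -0.15 for all genes, and 45, 40 and 39 members lay above the latter.

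**Figure D2:**
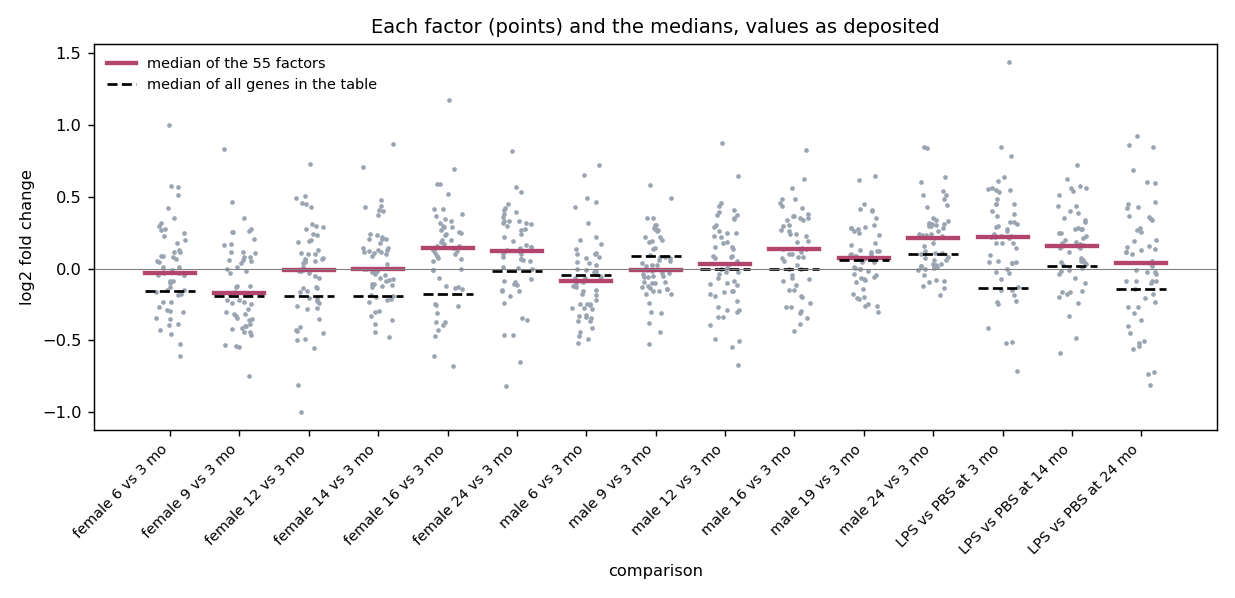
Log2 fold change of each factor (grey points), with the median of the 55 factors (red line) and of all 5647 genes (dashed black line) in 15 comparisons, values as deposited. The red line lies above the dashed line in every comparison except 6 and 9 months in males; after LPS at 3 months the lines are at 0.22 and -0.14.

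When the libraries were scaled by the median of gene ratios, which brings the median change of all genes in these comparisons to between -0.03 and 0.00, the falls called in females did not pass. Over the female ages the scaled calls were 8 rises and 0 falls (Eef1a1, Eef1b2, Eef2, Eif1, Eif1a, Eif2s2, Eif3f and Eif4a1), which is 14.5% of the members, against 6.41% of all genes that rose and 9.97% called in either direction. At 12 months the 1 rise and 2 falls became 4 rises and 0 falls (Eef2, Eif1, Eif3f and Eif4a1), or 7.27% of the members, against 2.16% of all genes that rose and 3.97% called. In these comparisons the share of members called was thus above that of all genes after scaling and below it on the deposited scale. At 16 months there were 4 rises (Eef1a1, Eef1b2, Eif1a and Eif2s2), or 7.27%, against 5.05% of all genes that rose and 6.91% called. For LPS at 3 months there were 6 rises and 0 falls (Eif1a, Eif2s1, Eif2s2, Eif4a1, Eif5 and Eif6), or 10.9%, against 7.88% of all genes that rose and 10.4% called. For LPS at 24 months there were 4 rises (Eif1a, Eif3a, Eif4enif1 and Eif5b), or 7.27%, against 6.48% of all genes that rose and 9.12% called. The split of all calls at 12 months in females was 14.5% higher as deposited and 54.5% higher after scaling, and at 16 months 33.4% and 73.1%. For LPS at 3 months the higher share of all calls was 54.8% and 75.7%, at 14 months 77.5% and 65.0%, and at 24 months 44.0% and 71.1%. The falls given for single members below hold relative to the deposited scale only.

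The members grouped under start codon selection and scanning were Eif1, Eif1a, Eif1ad, Eif1ax, Eif1b, Eif5 and Eif5b. Eif1a, which encodes a form of eIF1A, stood at 17, 17, 17 and 15 FPKM in the 3-month females and at 77, 36, 29, 25 and 42 FPKM in the 16-month females. The groups did not overlap, and the fold was 2.26 (log2 fold change 1.18, SE 0.28, limma adjusted p = 0.00778). At 14 months the values were 50, 31, 24, 28 and 15 FPKM, which overlapped the 3-month females, and at 24 months they were 19, 20 and 17 FPKM. The call at 16 months held when each of the 9 libraries was left out in turn, with log2 fold changes of 0.93 to 1.33, and after scaling (1.33).

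After LPS Eif1a rose at both ends of the age range. In the 3-month females given LPS it was at 43, 51 and 46 FPKM, all above the 4 PBS values, and the fold was 2.72 (log2 fold change 1.44, SE 0.24, limma adjusted p = 0.000339). This call held without each of the 7 libraries. At 14 months LPS females had 30, 42, 46, 50 and 34 FPKM and overlapped their PBS controls (0.51, SE 0.20, limma adjusted p = 0.203). At 24 months LPS females had 38, 35 and 36 FPKM against the 19, 20 and 17 FPKM of PBS females, a fold of 1.90 (log2 fold change 0.93, SE 0.26, limma adjusted p = 0.0271). The call at 24 months was lost when any of 4 of the 6 libraries was left out (all 3 PBS libraries and LPS replicate 1), with limma adjusted p-values of up to 0.0795 and log2 fold changes of 0.86 to 0.98.

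Eif1ax, the X-linked paralog of Eif1a, had a mean of 17.4 FPKM and passed in none of the 15 comparisons. At 16 months in females it was at 30, 13, 20, 24 and 22 FPKM, against 19, 17, 18 and 11 FPKM at 3 months. The 2 genes have similar coding sequences, and how reads that match both were assigned was not checked here, so that the split between them is uncertain. In males Eif1a varied within groups, from 14 to 31 FPKM at 3 months and from 17 to 73 FPKM at 19 months, and no age passed.

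Eif1 was higher in females at 12 months and after LPS at 3 months at an adjusted p under 0.05, but under the fold of 1.5. The values at 12 months were 402, 349, 341 and 320 FPKM against 249, 248, 271 and 275 FPKM at 3 months (fold 1.35, limma adjusted p = 0.0387). After LPS at 3 months they were 337, 356 and 377 FPKM (fold 1.37, limma adjusted p = 0.0101). Neither of these groups overlapped the 3-month PBS females. Eif5 and Eif5b had log2 fold changes of 0.48 and 0.54 after LPS at 3 months, and neither passed on the deposited scale.

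**Figure D3:**
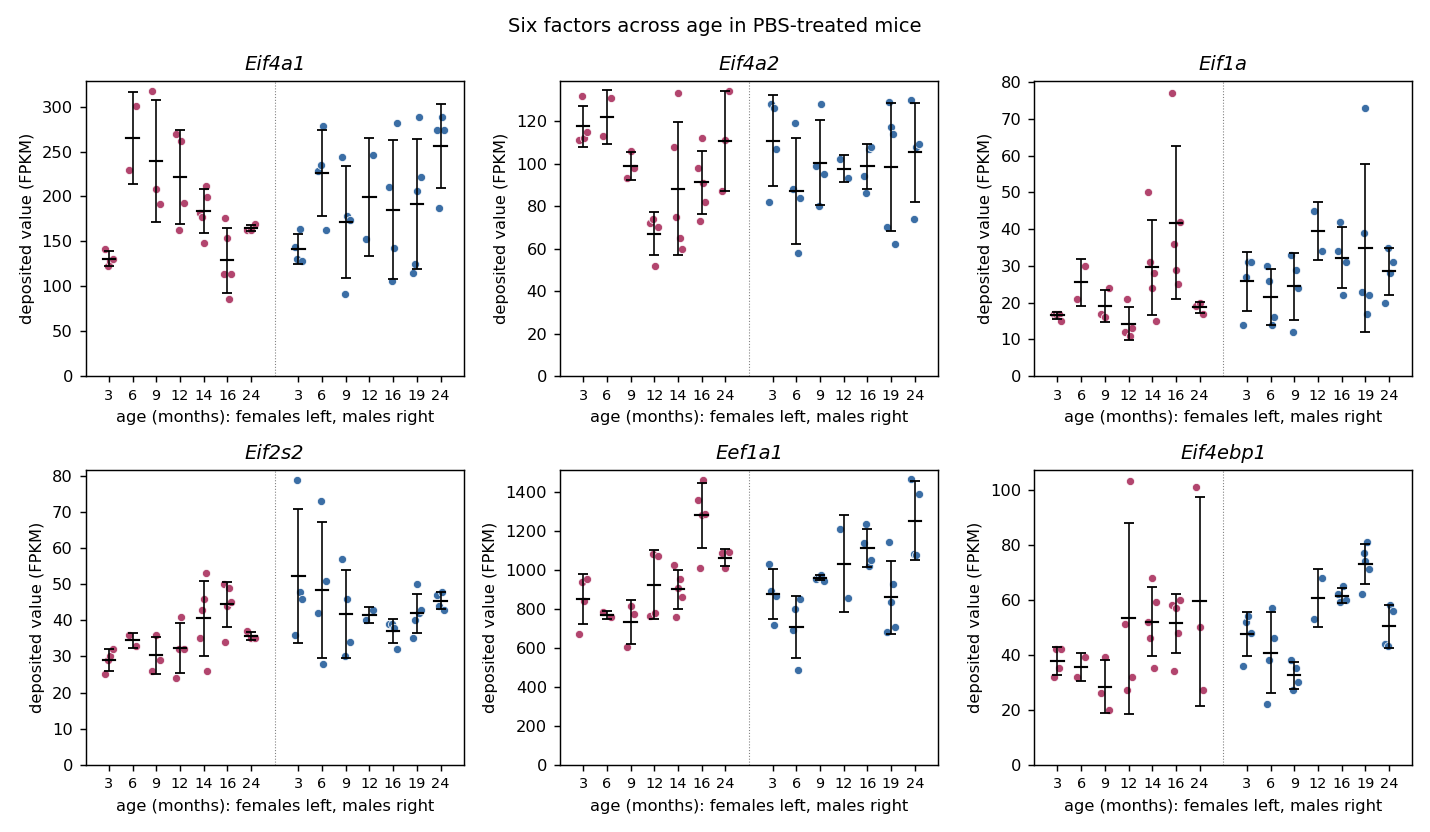
Values of Eif4a1, Eif4a2, Eif1a, Eif2s2, Eef1a1 and Eif4ebp1 in each PBS library (points; y axis, deposited value in FPKM, from 0; x axis, age in months, females left in red and males right in blue), with group means and SD (black). Eif4a1 in females is between 123 and 142 at 3 months, between 163 and 317 at 6 to 12 months and between 86 and 176 at 16 months.

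The eIF2 group held 9 members: the subunit genes Eif2s1 (alpha) and Eif2s2 (beta), the 5 genes Eif2b1 to Eif2b5 of its exchange factor eIF2B, and Eif2a and Eif2d, which can bring initiator tRNA without eIF2. Eif2s2 was at 25, 29, 30 and 32 FPKM in the 3-month females and at 50, 34, 44, 49 and 45 FPKM in the 16-month females, without overlap. The fold was 1.51, just past the threshold (log2 fold change 0.59, SE 0.18, limma adjusted p = 0.0320). The call was lost when any of 7 of the 9 libraries was left out, with adjusted p-values of up to 0.112, and was kept after scaling at 0.75. Libraries whose omission ended it were replicates 1, 2 and 3 at 3 months and replicates 1, 3, 4 and 5 at 16 months.

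After LPS at 3 months Eif2s2 was at 42, 60 and 58 FPKM, all above the PBS females of that age. The fold was 1.80 (log2 fold change 0.85, SE 0.19, limma adjusted p = 0.00454), and the call held without each of the 7 libraries. At 14 and 24 months LPS females had 45 to 63 and 46 to 56 FPKM, with log2 fold changes of 0.43 and 0.46 that did not pass. Eif2s1, whose product is the site of stress phosphorylation, had log2 fold changes of 0.55, 0.54 and 0.37 at 3, 14 and 24 months and passed at none of them.

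Members of eIF2B did not pass in any of the 15 comparisons. Eif2b5, the catalytic subunit, was at 14, 5, 6 and 7 FPKM in the 3-month males and at 12, 11, 19 and 16 FPKM in the 24-month males (log2 fold change 0.85, SE 0.26, limma adjusted p = 0.0803). In females its values were 7, 9, 11 and 11 FPKM at 3 months and 16, 17 and 19 FPKM at 24 months (0.82, SE 0.40, adjusted p = 0.267). These are low values in which 1 unit of rounding is a large step.

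Eif2ak1 was the only kinase of eIF2 alpha among the members; it encodes the kinase that senses heme shortage. Its values were 30, 34, 20 and 18 FPKM in the 3-month females and 12, 15, 17, 19 and 13 FPKM in the 16-month females. The groups overlapped by 1 unit, and the log2 fold change was -0.68 (SE 0.18, limma adjusted p = 0.0185). Without 3-month replicate 1 or replicate 2, the 2 highest libraries, the adjusted p-values were 0.0824 and 0.0941. After scaling the log2 fold change was -0.53 and the call was lost (adjusted p = 0.0813).

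The 13 genes of eIF3, the large complex that binds the small ribosomal subunit, were close to their 3-month level at most ages. None passed in the female or male age series. Eif3g, the eIF3 gene with the highest mean, was at 88, 105, 92 and 89 FPKM in the 3-month females and at 98, 102 and 112 FPKM at 24 months, where the groups overlapped. After LPS at 24 months Eif3a, the largest subunit, was at 40, 52 and 38 FPKM, against 25, 29 and 30 FPKM in PBS females of that age, without overlap. The fold was 1.52 (log2 fold change 0.60, SE 0.19, limma adjusted p = 0.0424), and the call was lost without any of 4 of the 6 libraries (PBS replicates 1 and 2 and LPS replicates 1 and 2; adjusted p-values of up to 0.149). In the same comparison Eif3h was at a log2 fold change of -0.51 (limma adjusted p = 0.0428), under the fold of 1.5, so that not all subunits shifted in 1 direction. Of the 13 subunits 7 had a log2 fold change above 0 at 24 months after LPS, 9 at 3 months and 12 at 14 months.

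Eif3f and Eif3h had an adjusted p under 0.05 over the female ages (0.0214 and 0.0328 in limma) with largest changes under the threshold, 0.49 at 12 months and 0.57 at 24 months. Eif3f was at 110, 98, 89 and 100 FPKM at 12 months and at 66, 63, 67 and 86 FPKM at 3 months. In males Eif3k had an adjusted p of 0.00336 in limma with a largest change of -0.34 at 6 months, a fold too small for the rule.

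Of the 11 members of the eIF4 group, which holds cap-binding, helicase and scaffold genes, the helicase genes Eif4a1 and Eif4a2 moved furthest. Their promoters are shown because these paralogs went in opposite directions at 12 months, and that of Eif2s2 because it rose in the 16-month females and after LPS at 3 months, comparisons that share the 3-month controls. The sequences are the 250 bases before the annotated start, 5′ to 3′ on the strand of the gene, from RefSeq on GRCm38.p6, and capitals mark the motifs named below:
Eif4a1 (chr11:69672424-69672673, minus strand): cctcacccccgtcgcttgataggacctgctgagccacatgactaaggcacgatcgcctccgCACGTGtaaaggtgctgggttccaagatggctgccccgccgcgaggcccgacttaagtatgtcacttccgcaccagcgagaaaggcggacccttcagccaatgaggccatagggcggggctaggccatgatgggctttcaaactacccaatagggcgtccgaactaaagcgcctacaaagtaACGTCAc
Eif4a2 (chr16:23107218-23107467, plus strand): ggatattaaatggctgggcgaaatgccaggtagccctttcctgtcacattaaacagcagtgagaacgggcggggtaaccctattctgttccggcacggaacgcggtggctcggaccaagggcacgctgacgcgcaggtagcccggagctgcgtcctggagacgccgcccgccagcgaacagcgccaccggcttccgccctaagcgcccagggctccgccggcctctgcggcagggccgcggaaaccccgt
Eif2s2 (chr2:154892907-154893156, minus strand): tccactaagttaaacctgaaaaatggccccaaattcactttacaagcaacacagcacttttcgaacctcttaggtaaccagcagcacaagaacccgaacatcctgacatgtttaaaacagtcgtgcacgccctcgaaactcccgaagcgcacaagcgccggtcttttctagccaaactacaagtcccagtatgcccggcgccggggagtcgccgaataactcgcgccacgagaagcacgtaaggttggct
The 4 motifs searched on both strands were CACGTG (E-box), TGACGT (the core of the cAMP response element), CCGGAAGT (an ETS motif) and the core of the interferon-stimulated response element. None of these overlap in the sequences shown. The Eif4a1 promoter held an E-box that began 189 bases before the start and a TGACGT, on the other strand, that began 7 bases before it, and the other 2 promoters held none of the 4. Windows of the 250 bases before a start were searched for all genes of the promoter table. The member windows covered 43 of the 55 members, with 57 windows, since some genes have several starts. Eif1a was among the 12 members not covered. Its chromosome, which holds no other member, was left out of the member windows but not of the windows of all genes. The member shares below therefore say nothing of the Eif1a promoter, and its absence does not mean that no promoter is annotated. The E-box was in 12 of these windows (21.1%), against 6.02% of all 32851 windows of the table, and the TGACGT core was in 8 (14.0%), against 6.47%. The ETS motif was in 4 windows (7.02% against 2.88%) and the interferon motif in 2 (3.51% against 2.98%). Genes with the E-box were Eef2, Eef2k, Eif1b, Eif3f, Eif3k, Eif4a1, Eif4e, Eif4g1, Eif4h and Eif5a. The windows of the table were not limited to the genes measured here, and a share over the measured genes was not taken. The differences in share can therefore not be called particular to the factors. A match describes the letters only and no binding was measured.

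Eif4a1, the main eIF4A of growing cells, changed with age in females without a steady trend. It was at 142, 123, 128 and 130 FPKM at 3 months, and at 229 and 301 FPKM at 6 months, 317, 208 and 192 FPKM at 9 months and 270, 163, 262 and 193 FPKM at 12 months. All of these middle-aged females lay above the 3-month females. The values were 148 to 212 FPKM at 14 months, 114, 176, 154, 86 and 114 FPKM at 16 months, where they overlapped the 3-month group, and 163, 163 and 169 FPKM at 24 months. Over all female ages Eif4a1 passed (limma adjusted p = 0.00324), with the largest change at 6 months (log2 fold change 1.00, SE 0.24, fold 2.00), which rests on 2 mice and did not pass alone (adjusted p = 0.0657).

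At 9 months the log2 fold change of Eif4a1 was 0.83 (SE 0.21, limma adjusted p = 0.0345) and at 12 months 0.73 (SE 0.19, adjusted p = 0.0203). The call at 12 months was lost without any of 4 of the 8 libraries (3-month replicates 2 and 3 and 12-month replicates 1 and 3; adjusted p-values of up to 0.0729), while the call over all ages held without each of the 26 libraries. After scaling the log2 fold changes were 1.17, 1.01 and 0.93 at 6, 9 and 12 months, all past the threshold. In males Eif4a1 was at 128 to 164 FPKM at 3 months and at 274, 187, 289 and 274 FPKM at 24 months, without overlap, but the spread at the other ages was wide (91 to 244 FPKM at 9 months), and the difference did not pass (log2 fold change 0.84, SE 0.30, adjusted p = 0.157).

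With LPS Eif4a1 rose at 3 and 14 months. At 3 months LPS females had 180, 200 and 221 FPKM, all above the 4 PBS females (fold 1.53, log2 fold change 0.61, SE 0.13, limma adjusted p = 0.00272). At 14 months they had 294, 264, 316, 338 and 301 FPKM, against 182, 177, 148, 212 and 199 FPKM, again without overlap (fold 1.65, log2 fold change 0.72, SE 0.11, adjusted p = 0.000359). The call at 14 months held without each of the 10 libraries. At 3 months the fold fell under 1.5 without PBS replicate 2 or LPS replicate 3 (log2 fold changes of 0.58 and 0.54). At 24 months LPS and PBS females differed little, with 178, 178 and 187 FPKM against 163, 163 and 169 FPKM (log2 fold change 0.13, SE 0.14, adjusted p = 0.554).

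Eif4a2, the second eIF4A gene, fell at 12 months in females. Its values were 72, 74, 52 and 70 FPKM, all below the 111, 132, 112 and 115 FPKM of the 3-month females (fold 0.570, log2 fold change -0.81, SE 0.20, limma adjusted p = 0.0137). At 14 months the values spread from 60 to 133 FPKM, and at 24 months they were 87, 111 and 134 FPKM. After scaling the change at 12 months was -0.62 and did not pass (adjusted p = 0.0652), and without 3-month replicate 2 the adjusted p was 0.0502. Its call over all female ages was lost without any of 8 of the 26 libraries (all 4 of 3 months, 6-month replicate 2, 12-month replicates 3 and 4 and 24-month replicate 2; adjusted p-values of up to 0.0739). In males, and after LPS, Eif4a2 did not pass in any comparison. Reads shared by the paralogs Eif4a1 and Eif4a2 could have been split between them by the counting, which makes the contrast between them less certain.

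Eif4e3, a member of the cap-binding family, passed over the female ages with its largest change at 6 months (log2 fold change -0.61, limma adjusted p = 0.0439), where the 2 mice had 11 FPKM each against 14, 18, 17 and 21 FPKM at 3 months. This call was lost without any of 16 of the 26 libraries, and after scaling (-0.46, adjusted p = 0.164). In males Eif4e3 went the other way at 16 and 24 against 3 months, with log2 fold changes of 0.62 and 0.64. Neither passed (limma adjusted p = 0.0627 and 0.0981). Eif4e, the cap-binding protein itself, ranged from 42 to 92 FPKM over all libraries and passed nowhere. The same was true of the scaffold genes Eif4g1, Eif4g2 and Eif4g3 and of the helicase helpers Eif4b and Eif4h.

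Among the eIF4E-binding proteins Eif4ebp1, the repressor of cap-dependent initiation that mTORC1 phosphorylates, was the only member called over the male ages (limma adjusted p = 0.00096). Its values were 36, 52, 54 and 48 FPKM at 3 months, 38, 27, 35 and 30 FPKM at 9 months, 62, 59, 65 and 60 FPKM at 16 months, 62, 77, 74, 81 and 71 FPKM at 19 months and 44, 43, 58 and 56 FPKM at 24 months. The 19-month males lay above all of the 3- and 9-month males, and the 24-month males lay below all of the 16- and 19-month males. Against 3 months the largest change was 0.62 at 19 months (SE 0.19, adjusted p = 0.0765 for that age alone), with -0.53 at 9 months. Which age differed most from 3 months depended on the scale: after scaling, and without 3-month replicate 1, it was the lower level at 9 months (-0.63 and -0.65). Without 19-month replicate 4 the largest change was 0.58, under the fold of 1.5.

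In females Eif4ebp1 varied more within groups, with 51, 27, 103 and 32 FPKM at 12 months and 101, 50 and 27 FPKM at 24 months, and it did not pass. Its within-group SD was 0.53 on the log2 scale in females and 0.28 in males. LPS females had 46 to 61 FPKM at 3 months and 49 to 74 FPKM at 14 months, and the differences from PBS did not pass. Eif4enif1 was at 17, 10, 12 and 12 FPKM in the 3-month females, and its difference at 24 months did not pass (log2 fold change -0.82, limma adjusted p = 0.0847).

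Eif5a was higher in older males at an adjusted p under 0.05, by less than the fold of 1.5. It was at 274, 292, 263 and 260 FPKM at 3 months, 379, 386, 368 and 390 FPKM at 16 months and 356, 387, 368 and 419 FPKM at 24 months. Neither older group overlapped the 3-month males. The folds were 1.40 at both ages, with limma adjusted p-values of 0.0291 and 0.0483. In females it was at 271, 264, 285 and 273 FPKM at 3 months and at 389, 373 and 299 FPKM at 24 months (fold 1.29, adjusted p = 0.245). Eif6, which keeps the large ribosomal subunit from joining too early, had an adjusted p under 0.05 after LPS at 3 and 14 months (folds 1.47 and 1.48, limma adjusted p = 0.0368 and 0.0346) and passed at neither.

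Of the 5 genes of the eEF1 group, Eef1a1 rose at 16 months in females. It was at 671, 937, 840 and 953 FPKM at 3 months and at 1361, 1012, 1279, 1462 and 1289 FPKM at 16 months, without overlap (fold 1.51, log2 fold change 0.59, SE 0.14, limma adjusted p = 0.00775). At 24 months the values were 1088, 1012 and 1090 FPKM, also above all 3-month females, with a fold of 1.26 that did not pass (adjusted p = 0.247). The call at 16 months was lost without 3-month replicate 1 (adjusted p = 0.0507) and, with the fold under 1.5, without 16-month replicate 1 or 4 (log2 fold changes of 0.57 and 0.54). The call over all female ages was lost without the same 3 libraries, each time with the fold under 1.5. In males the 24-month values of 1465, 1082, 1075 and 1387 FPKM lay above the 717 to 1029 FPKM of 3 months, and the difference did not pass (log2 fold change 0.51, SE 0.17, adjusted p = 0.129). Eef1a1 made up 20.4 to 25.5% of the summed values of the members in 3-month females and 25.4 to 31.9% in 16-month females. The mouse genome holds many processed copies of this gene, and reads shared with them could not be followed here.

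The exchange factor genes Eef1b2, Eef1d and Eef1g, which reload eEF1A with GTP, and Eef1e1, whose product sits in the multisynthetase complex, did not pass in any of the 15 comparisons. All 5 eEF1 genes had a log2 fold change above 0 at 16 and at 24 months against 3 months in both sexes. Eef1b2 was at 23, 28, 31 and 35 FPKM in the 3-month females and at 40, 40, 48, 50 and 34 FPKM at 16 months (log2 fold change 0.52, SE 0.18, limma adjusted p = 0.0545).

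Eef2 had an adjusted p of 0.00881 over the female ages in limma, with a largest change of 0.45 at 12 months, under the threshold. Its values were 116, 131, 101 and 151 FPKM at 3 months and 146, 175, 187 and 170 FPKM at 12 months. Its kinase gene Eef2k, whose product slows elongation by phosphorylating eEF2, fell after LPS at 3 months. LPS females had 16, 20 and 22 FPKM, against 34, 28, 28 and 40 FPKM in PBS females, without overlap (fold 0.609, log2 fold change -0.72, SE 0.22, limma adjusted p = 0.0321). The call was lost without any of 5 of the 7 libraries (PBS replicates 1 and 4 and all 3 LPS libraries; adjusted p-values of up to 0.126) and after scaling (-0.61, adjusted p = 0.0827). At 14 months LPS females had 14 to 26 FPKM against 20 to 29 FPKM, and at 24 months they had 22, 36 and 26 FPKM against 16, 21 and 24 FPKM (log2 fold changes of -0.33 and 0.43, neither passing).

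The 3 methyltransferase genes that modify the elongation factors were low, with means of 12.1 to 17.6 FPKM. Eef1akmt1, the highest of them, was at 16, 19, 21 and 24 FPKM in the 3-month females and at 18, 22 and 22 FPKM at 24 months, within the same range. Eef1akmt2, which methylates eEF1A, was at 16, 15, 12 and 16 FPKM in the 3-month females and at 7, 3, 12 and 8 FPKM at 12 months, and it fell by 1.00 on the log2 scale (SE 0.32, limma adjusted p = 0.0423). The groups met at 12 FPKM. The call was lost without any of 6 of the 8 libraries and after scaling (-0.82, adjusted p = 0.133), and it rests most on 12-month replicate 2, without which the log2 fold change was -0.68.

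**Figure D4:**
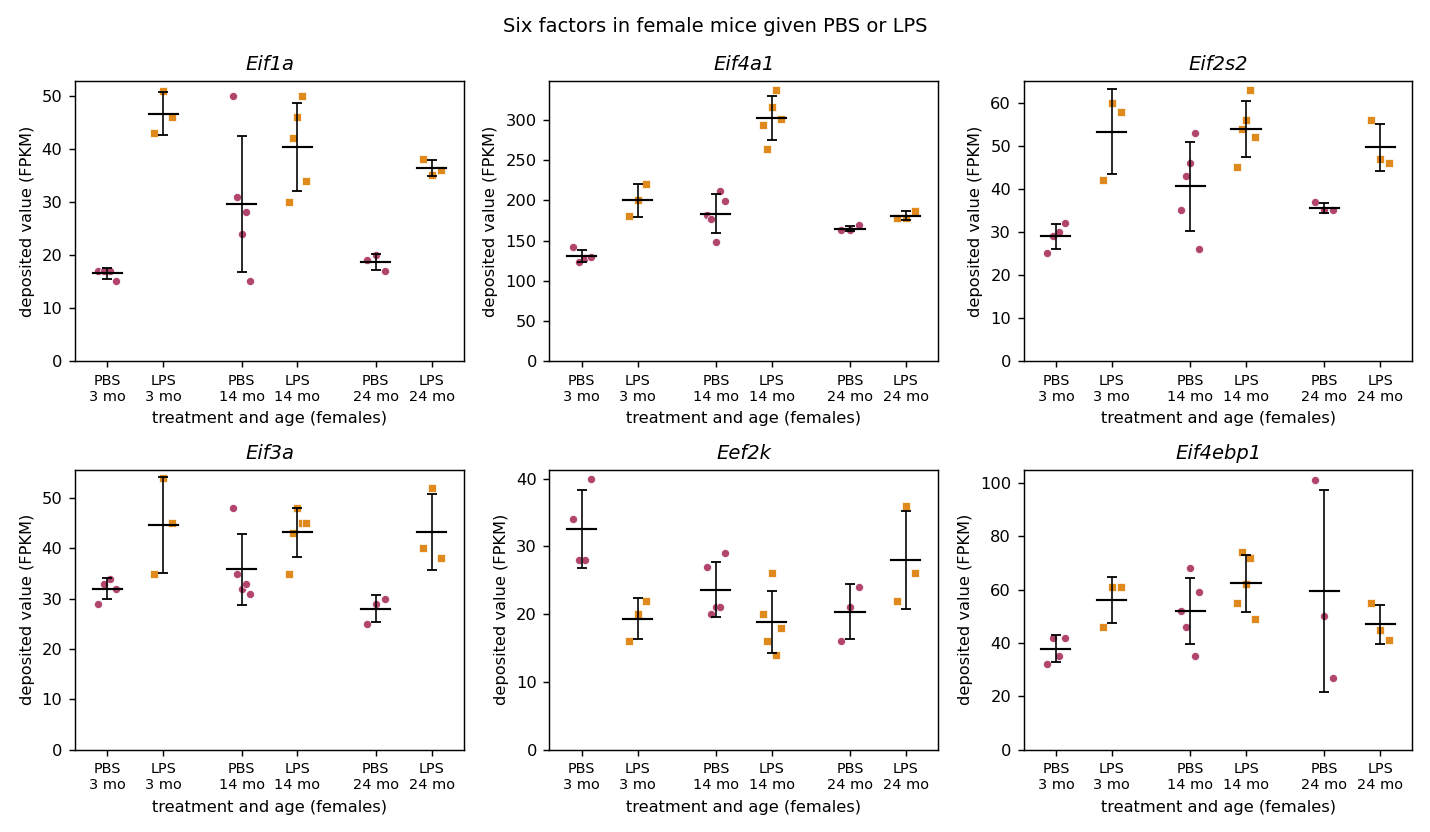
Values of Eif1a, Eif4a1, Eif2s2, Eif3a, Eef2k and Eif4ebp1 in female libraries given PBS (red circles) or LPS (orange squares) at 3, 14 and 24 months (y axis, deposited value in FPKM, from 0), with group means and SD (black). LPS values of Eif4a1 lie above PBS values at all 3 ages, by a wide margin at 14 months (264 to 338 against 148 to 212) and a small one at 24 months (178 to 187 against 163 to 169).

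The differences between the LPS responses at different ages were tested as interactions, and no member passed in limma, against 0.301% of all genes for 14 minus 3 months and 0% for 24 minus 3 months. At an unadjusted p under 0.05 there were 3 members for 14 months (10.2% of all genes), all with a lower response than at 3 months (3.06% of all genes). For 24 months there were 9 (11.6%), 7 of them lower (5.88%). For Eif1a the response at 14 months was smaller by a log2 difference of -0.93 (SE 0.32, 95% interval -1.59 to -0.28, adjusted p = 0.264). For Eef2k the difference at 24 months was 1.15 (SE 0.32, interval 0.49 to 1.81, adjusted p = 0.163), from -0.72 at 3 months to 0.43 at 24 months. For Eif4a1 it was -0.48 at 24 months (SE 0.19, adjusted p = 0.324). These intervals are wide, and a difference in response by age was not shown for any member.

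Males and females were compared over the 6 ages that both had. No member passed in limma (0.230% of all genes did), and 6 had an unadjusted p under 0.05 (16.9% of all genes), all higher in males (8.09%). Eif2s2 came nearest, with a log2 difference of 0.34 (interval 0.15 to 0.53, adjusted p = 0.0537), followed by Eif3j1, a loosely bound eIF3 subunit, at 0.31 (interval 0.12 to 0.49, adjusted p = 0.0734). The difference between the sexes in the change from 3 to 24 months passed for no member (0.0177% of all genes), with 2 members at an unadjusted p under 0.05 (8.57% of all genes).

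Markers of other cells moved with several of these comparisons. Sums are given below for some female groups only, although the neutrophil sum was highest in the 16-month males. The summed neutrophil markers, all 12 in the table, were 6853 to 18512 in the 3-month PBS females, 2011 to 3617 in the 3-month LPS females, 1822 to 5169 in the 12-month females and 2600 to 15408 in the 16-month females. The summed markers of T and NK cells, 4 of 8 in the table, were 48 to 57 in the 3-month PBS females, 173 to 278 after LPS and 116 to 331 at 16 months. The genes summed were Cd3g, Nkg7, Ms4a4b and the chemokine gene Ccl5. The paper places this chemokine gene among interferon-pathway genes enriched in microglia that responded strongly to LPS. A higher sum can therefore not be read as more T and NK cells, and the share of each gene in it was not tested. The summed microglial markers were 24857 to 26494 in the 3-month PBS females, 18203 to 21804 after LPS, 14974 to 17477 at 12 months and 15493 to 21124 at 16 months. Over all libraries 7 values of neutrophil markers and 3 of T and NK cell markers were at 0. The part of such shifts in the results for the factors was not tested, in females or in males.

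Other genes of translation were counted by list. Of the 77 cytosolic ribosomal protein genes in the table, 12 rose at 16 months and 20 at 24 months against 3 months in females, with no falls and median log2 fold changes of 0.47 and 0.55. At these ages 3.01% and 1.56% of all genes rose. In males 3 of the 77 rose at 16 months and 2 at 24 months, with medians of 0.42 at both ages, where 4.52% and 2.73% of all genes rose. After scaling the counts were 51 and 20 in females, where 5.05% and 1.54% of all genes rose. In males they were 2 and 0, where 4.41% and 1.77% of all genes rose. The 9 members that are themselves known as 5′ TOP messages, the class of mRNAs with a pyrimidine start that mTOR controls together with ribosomal proteins (Eef1a1, Eef1b2, Eef1d, Eef1g, Eef2, Eif3e, Eif3f, Eif3h and Eif4b), had medians of 0.29 at 16 months and 0.33 at 24 months in females. The other 46 members had medians of 0.09 at both ages. In males the 9 had medians of 0.35 and 0.31 at 16 and 24 months and the other 46 had 0.10 and 0.11. After LPS at 3 months the medians were 0.22 for both sets, and the ribosomal protein genes had 0.16 with none called.

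Of 14 measured genes of the integrated stress response, the program that follows phosphorylation of eIF2 alpha, 4 rose (Atf4, Mthfd2, Nupr1 and Ppp1r15b) and 1 fell (Atf3) after LPS at 3 months, with a median log2 fold change of 0.48, against the 6.16% and 5.08% of all genes that rose and fell. At 14 months 1 rose (Atf4), where 1.40% of all genes rose and 0.407% fell. At 24 months 1 rose (Ppp1r15b) and 4 fell (Atf3, Phgdh, Ppp1r15a and Shmt2), with a median of -0.19, where 4.27% of all genes rose and 5.44% fell. After scaling the 4 falls at 24 months still passed, with a median of -0.08, and at 3 months Atf3 did not pass and Xbp1 did, as a rise. Among 17 genes of termination, recycling and poly(A) binding, Denr and Etf1 rose after LPS at 3 months, Pdcd4, which encodes an inhibitor of eIF4A, fell at 14 months, and Paip2 fell at 12 and 16 months in females. Among 18 genes of mTOR and eIF4E control, Lamtor4 fell after LPS at 3 months and Akt1s1 and Lamtor1 at 24 months. None of the 22 aminoacyl-tRNA synthetase and partner genes passed after LPS, and Dars fell at 12 months in females. After scaling, Denr, Etf1, Pdcd4, Akt1s1 and the 12-month fall of Paip2 still passed, and the 16-month fall of Paip2 and the falls of Lamtor1, Lamtor4 and Dars did not. These lists were chosen with results of these data in view.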

How the data were processed

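Microglia of 64 mice were profiled by RNA-seq with oligo-dT priming. The submitters' processing notes name RSEM 1.2.12, with Bowtie2 2.2.5 and HISAT2 2.0.4 as aligners. The deposited values are a score: FPKM that the authors adjusted for batch with ComBat_seq and rounded, without genes averaging under 10. The batches are not named in the sources used here. Depth is unknown, so no count test was run.

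Values were analysed as log2(value + 1) with limma 3.58.1 in R 4.3.3 (trend, Benjamini-Hochberg over 5647 genes), after testing on simulated data. Separate fits held the 26 female PBS libraries, the 27 male PBS libraries, 23 libraries for LPS and 43 for sex at 6 shared ages. Given with values were up to 6 called members per direction in a comparison and the member with the highest mean of each role. Other members, such as Eif1ax and Eif2b5, were chosen after their values were seen. Members and lists were chosen with earlier results of these data known. Replicates are single mice. Replicate numbers are those of the sample titles, and in several groups the submitters' column names number the same libraries otherwise. Libraries with the same title number did not deviate together at the median (correlation 4.26e-05 in females and -0.00444 in males). Whether libraries with the same column number did was not tested. Single pairs ranged from -0.246 to 0.224 in females and from -0.324 to 0.396 in males. Promoters are from RefSeq, GRCm38.p6. Alternatives were pseudocounts of 0.5 and 5, a mean of 50 or more, 2 scalings, robust variance, a replicate block, groups fitted alone and leaving out each library. The scaled counts of the other gene lists were added after seeing the data.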

Additional observations from a re-analysis of the deposited data

Results flagged for a closer look

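For 16 members and 11 groups of 4 or 5 mice, 176 combinations, a library was looked for whose distance from its nearest neighbour took up most of the range of its group (Dixon's criterion at 95%). Chance flags about 1 in 20 groups, and 13 combinations (7.39%) were flagged. Each was flagged because 1 library stood far from the others of its group, and no cause was tested.

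In the 14-month LPS females, replicate 1 was low for Eef1a1 (646 FPKM, others 912 to 989) and Eif3g (82 FPKM, others 109 to 119). In the 24-month males, replicate 1 was high for Eef2 (224 FPKM, others 149 to 158) and Eif3a (51 FPKM, others 36 to 38), and replicate 2 was low for Eif4a1 (187 FPKM, others 274 to 289). In the 16-month males, replicate 2 was high for Eef1akmt2 (19 FPKM, others 11 to 12) and low for Eif1 (278 FPKM, others 319 to 323), and replicate 4 was low for Eif2s2 (32 FPKM, others 38 to 39). In the 19-month males, replicate 4 was high for Eef2 (223 FPKM, others 125 to 138) and replicate 5 was high for Eif5a (479 FPKM, others 323 to 350). Replicate 2 of the 3-month males was high for Eif4e3 (17 FPKM, others 9 to 10). Replicate 1 of the 14-month females was high for Eif3a (48 FPKM, others 31 to 35). Replicate 4 of the 3-month females had 15 FPKM of Eif1a where the others had 17 each, a gap of little more than the rounding.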

How the results depend on the processing

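Each alternative was applied to all genes as well as to the members. Where no share of all genes is given, a count is not a result about the members. The number of members called over the female ages was 5 (9.09%, against 14.8% of all genes). It was 8 with median-ratio scaling (14.5%, against 9.97% of all genes), 3 with genes of a mean of 50 or more and 9 with the adjusted p alone. It was 2 without the 16-month group (Eif4a1 and Eif4a2), an alternative chosen after seeing the data. Leaving out each library gave 3 to 6 (3 without 3-month replicate 1 or 2 or 6-month replicate 2). Over the male ages the 1 call became 0 with a pseudocount of 5, with the same total in every library and with only the male libraries without values between 0 and 1, and 6 with the adjusted p alone, with 0 to 3 on leaving out a library (0 without 19-month replicate 4, 3 without 3-month replicate 1, 2 without 3-month replicate 4, 6-month replicate 2 or 12-month replicate 1). The change of Eif4ebp1 there turned to -0.63 with median-ratio scaling, -0.56 with the same total and -0.65 without 3-month replicate 1, because the age of the largest change became 9 months, and it ran from -0.65 to 0.69 on leaving out a library.

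At 12 months in females 0 to 3 members were called on leaving out a library (0 without 3-month replicate 2, 1 without 3-month replicate 3 or 12-month replicate 1). At 16 months the 4 calls became 2 with a pseudocount of 5 and 1 with a mean of 50 or more, with 1 to 4 on leaving out a library (1 without 3-month replicate 1, 2 without 3-month replicate 2 or 16-month replicate 1 or 4). At 24 months in females the 0 calls became 3 with the 2 groups fitted alone (Eef2k, Eif2b5 and Eif4enif1). In males the 0 calls at 16 months became 1 with a pseudocount of 0.5 and 1 with the adjusted p alone (0 to 1 on leaving out a library, 1 without 3-month replicate 1 or 2 or 16-month replicate 1), and at 24 months 1 with the adjusted p alone and 1 with the 2 groups alone (0 to 2 on leaving out a library, 2 without 3-month replicate 1 and 1 without replicate 2).

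For LPS at 3 months the 4 calls became 1 with a mean of 50 or more and 2 to 5 on leaving out a library (2 without LPS replicate 3). At 14 months the 1 call became 2 with the adjusted p alone and 1 to 3 on leaving out a library (3 without PBS replicate 3, 2 without PBS replicate 1 or LPS replicate 1 or 2). At 24 months the 2 calls became 1 with a pseudocount of 5, 0 with a mean of 50 or more and 0 with the 2 groups alone. They became 4 with median-ratio scaling (7.27% of members, 9.12% of all genes) and 5 with the same total (9.09% and 9.24%). Leaving out a library gave 0 to 3 (0 without PBS replicate 1 or LPS replicate 1, 1 without PBS replicate 2). Counts in this section without a share of all genes beside them were not set against one. A mean of 50 or more leaves most members out by construction; the cause of the other changes was not tested. With a replicate block the calls over the female ages were 3 (Eef1a1, Eif1a and Eif4a1), and the replicate block moved no other count of calls by over 1.5 times. The interactions and the sex comparisons had 0 calls under every alternative run. With depth unknown, no counting error can be set beside low values, in which 1 unit of rounding is a large step.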
